A study of Mus musculus with 38 samples.

Results

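The tubulin genes described here are 10 alpha- and beta-tubulin genes measured in left ventricles of mice, namely Tuba1a, Tuba1b, Tuba1c, Tuba4a and Tuba8 for alpha-tubulin and Tubb2a, Tubb2b, Tubb4b, Tubb5 and Tubb6 for beta-tubulin. They were chosen by name from a table of 29564 genes, and all 10 passed the filter on low counts that left 13765 genes to test. The study compared wild-type C57BL6 mice without heart failure, given vehicle (non-failing, n = 8), with mice that had heart failure with preserved ejection fraction (HFpEF) and were given vehicle (HFpEF+Veh, n = 8), TYA-018, an inhibitor of the cytosolic deacetylase HDAC6 (HFpEF+TYA-018, n = 11), or an inhibitor of the renal glucose transporter SGLT2 (HFpEF+SGLT2i, n = 11). From the methods of the study, the SGLT2 inhibitor was empagliflozin and disease was induced with a high-fat diet and L-NAME, a blocker of nitric oxide synthesis. All 3 HFpEF groups thus share that diet and L-NAME, and each library came from 1 mouse. The labels call the mice female whereas the methods name males, the series title and the methods give different treatment lengths, and the labels give no ages.

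Tubulin is the building block of microtubules. Alpha- and beta-tubulin pair into dimers that stack into hollow filaments, and each is made from several genes, the isotypes, whose proteins differ mostly at the acidic tail. In heart muscle cells the microtubule lattice resists compression as the cell shortens, and it becomes denser and loses more of its terminal tyrosine in failing hearts. HDAC6 removes the acetyl group that ATAT1 places on lysine 40 of alpha-tubulin inside the filament. The libraries measured mRNA, so acetylation itself was not measured here.

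The site on which HDAC6 acts differed between the isotypes that were measured, and the coding bases around codon 40 are shown for that reason. They were read from the GENCODE M21 transcripts on GRCm38, 5′ to 3′ on the coding strand, from codon 37 to codon 43 with codon 40 in capitals. All 5 stretches lie in exon 2, and that of Tuba4a spans chr1:75217309-75217329 on the minus strand while that of Tuba8 spans chr6:121220489-121220509 on the plus strand.
Tuba1a: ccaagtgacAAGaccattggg
Tuba1b: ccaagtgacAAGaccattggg
Tuba1c: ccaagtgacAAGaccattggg
Tuba4a: cccagcgatAAGaccattggt
Tuba8: ggcactcagGCCagcaagatc
Codon 40 reads lysine in Tuba1a, Tuba1b, Tuba1c and Tuba4a, and alanine in Tuba8. Of these 5 alpha-tubulin genes, Tuba8 is thus the only one without the lysine codon at this place.

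The last codons set whether the tail carries the tyrosine that VASH1 with its partner SVBP removes and that TTL puts back. The final 6 codons before the stop are shown with the last in capitals, those of Tuba4a at chr1:75215625-75215642 in exon 4 and those of Tuba8 at chr6:121226059-121226076 in exon 5.
Tuba1a: gaagaaggagaggaaTAC
Tuba1b: gaagaaggagaggagTAC
Tuba1c: gatgagggtgaggaaTAT
Tuba4a: gaggatgagggagaaGAG
Tuba8: aatgagggggaggaaTTT
The last codon reads tyrosine in Tuba1a, Tuba1b and Tuba1c, glutamate in Tuba4a and phenylalanine in Tuba8. The Tuba4a message, the most abundant of the alpha-tubulins below, thus ends without a tyrosine codon.

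The first 4 codons are the stretch that the cell reads, as the chain leaves the ribosome, when it destroys tubulin mRNA in the presence of surplus tubulin. They are given for the genes that differed most between groups, with the codons after the start in capitals.
Tuba4a: atgCGCGAGTGC
Tuba8: atgAGGGAATGC
Tubb4b: atgAGGGAGATC
Tubb2b: atgCGAGAGATC
Tuba1a: atgCGTGAGTGC
The fourth codon reads TGC in the alpha genes shown and ATC in the beta genes shown. In the alpha genes shown an intron follows the start codon, so the 4 codons come from exons 1 and 2, and in the beta genes shown they lie in exon 1.

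The genes lie on 7 chromosomes. On GRCm38, Tuba1b (chr15:98931425-98934565, minus strand), Tuba1a (chr15:98949837-98953703, minus strand) and Tuba1c (chr15:99029891-99038110, plus strand) neighbour each other, as do Tubb2a (chr13:34074274-34078007) and Tubb2b (chr13:34126748-34130466), both on the minus strand. Tuba4a lies at chr1:75214228-75219865 and Tubb4b at chr2:25222160-25224702, both on the minus strand. Tuba8 lies at chr6:121210696-121226854 on the plus strand, Tubb5 at chr17:35833921-35838306 on the minus strand and Tubb6 on chromosome 18. The coding bases of Tuba1a and Tuba1b were identical at 98.3% of 1353 positions, and those of Tubb2a and Tubb2b at 96.5% of 1335 positions. Reads from these near-identical copies can be split wrongly between them. The levels of Tuba1a against Tuba1b and of Tubb2b against Tubb2a are thus uncertain, and sums of the neighbours are given below.

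The libraries held 21451631 to 59280407 estimated counts. Among the members the lowest count in any library ranged from 38.8 for Tubb2b to 3576 for Tubb4b. The tissue label fitted its markers, with 6 cardiomyocyte markers summing to 7901 to 15390 in transcripts-per-million units (TPM) over all libraries. The vehicle library V2523 stood apart: its 6 hepatocyte markers summed to 960.4 TPM, against at most 25.9 in the other HFpEF+Veh libraries and 1.22 to 2.67 in HFpEF+TYA-018. In non-failing libraries these markers summed to 16.4 to 258 TPM. Vehicle values are therefore also given without V2523.

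Levels were first compared between genes, in TPM, which corrects for transcript length. Tuba4a was the highest of the 10, at 202 ± 58.9 TPM (SD, n = 38), followed by the leading beta-tubulin Tubb4b at 111.5 ± 17.96. Tuba4a exceeded Tubb4b in 37 of the 38 libraries, and Tubb4b exceeded the next gene, Tuba1b, in all 38. Tuba1b, a general alpha-tubulin, stood at 71.8 ± 10.8 TPM. Tuba1a at 49.1 ± 11.6 and Tuba8 at 44.1 ± 8.06, a form first known from heart and skeletal muscle, could not be ranked against each other, since Tuba1a was the higher in 22 of 38 libraries. Below them came Tubb5 at 33.8 ± 5.58, Tubb2a at 19.9 ± 4.32, Tuba1c at 13.9 ± 1.92, Tubb6 at 8.54 ± 1.32 and Tubb2b at 1.32 ± 0.42 TPM. From Tuba8 downwards each gene exceeded the next in at least 33 of 38 libraries. Over all 38 libraries the coefficient of variation was widest for Tubb2b, at 32.0%, and Tuba4a, at 29.1%, and narrowest for Tuba1c, at 13.8%. It includes differences between groups as well as between mice.

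**Figure D1:**
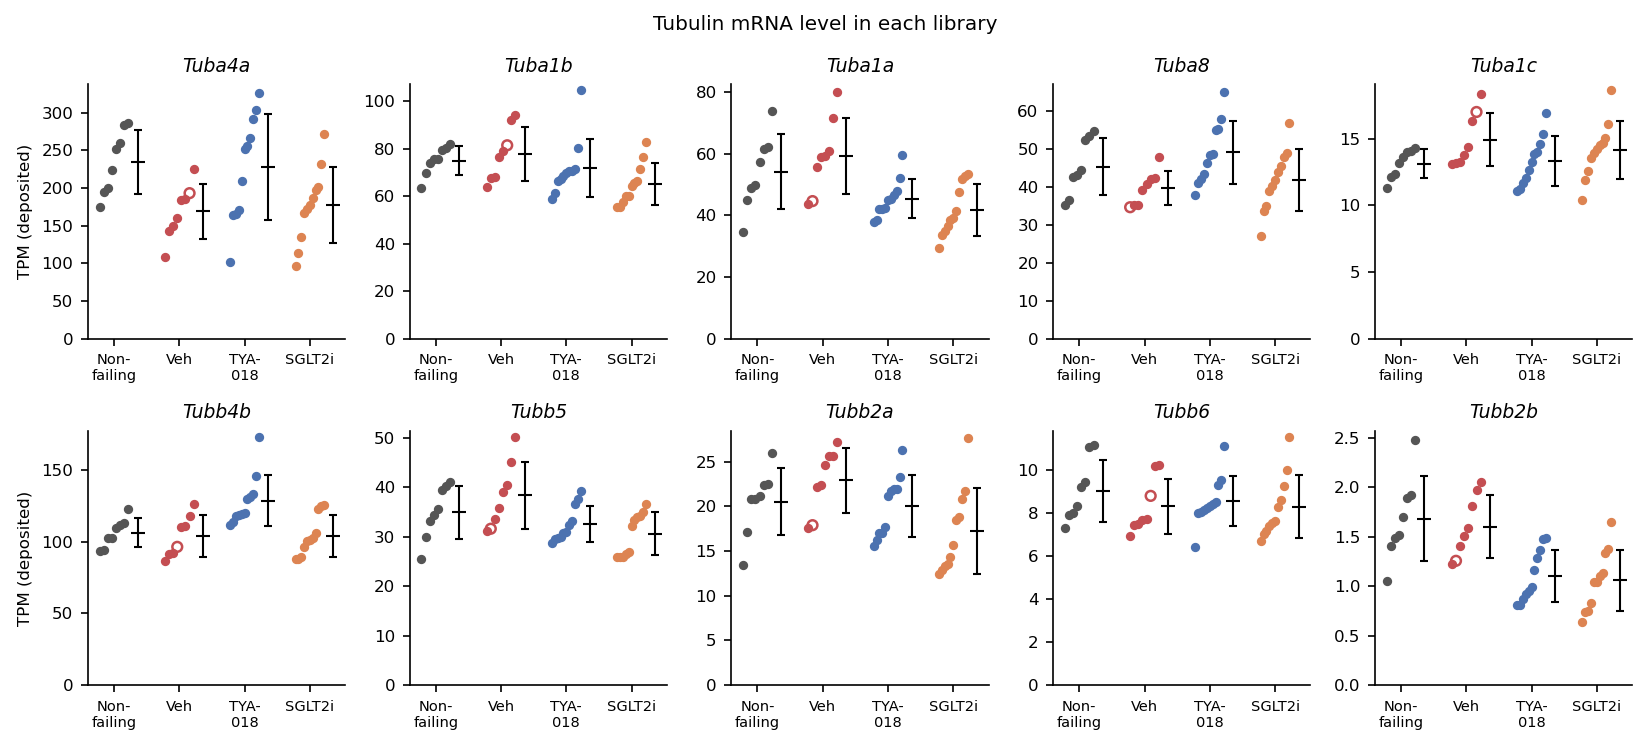
Level of each tubulin gene in TPM, one point per library (8 non-failing, 8 HFpEF+Veh, 11 HFpEF+TYA-018, 11 HFpEF+SGLT2i), sorted within each group, with mean and SD beside the points and the vehicle library V2523 as an open circle. Tuba4a reaches 326 TPM in 1 HFpEF+TYA-018 library, whereas Tubb2b reaches at most 2.48 TPM in any library.

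As a share of the summed TPM of the 5 alpha-tubulin genes, Tuba4a made up 55.2 ± 5.55% in non-failing hearts, 46.5 ± 6.36% in HFpEF+Veh, 54.8 ± 7.61% in HFpEF+TYA-018 and 51.4 ± 6.96% in HFpEF+SGLT2i (SD over the 8, 8, 11 and 11 libraries). Over the HFpEF+Veh libraries this share ran from 33.8% to 53.5%, and it overlapped with the range of every other group. The 2 alpha genes without the tyrosine codon, Tuba4a and Tuba8, were thus the majority of the summed TPM of these 5 genes in the mean of each group. Without V2523 the Tuba4a share in HFpEF+Veh was 45.7 ± 6.42% (n = 7).

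Among the 5 beta-tubulin genes, Tubb4b held 61.7 ± 4.25% of the summed TPM in non-failing hearts, 59.3 ± 3.62% in HFpEF+Veh, 67.2 ± 2.31% in HFpEF+TYA-018 and 64.5 ± 4.10% in HFpEF+SGLT2i. In HFpEF+TYA-018 the share ran from 64.2% to 70.2%, above the highest HFpEF+Veh library at 62.9%. In HFpEF+SGLT2i it ran from 54.7% to 68.2% and in non-failing hearts from 55.4% to 69.35%. Each of these ranges overlapped with those of HFpEF+TYA-018 and HFpEF+Veh. Tubb5, the beta-tubulin of dividing and many other cells, went from 21.9 ± 2.62% in HFpEF+Veh to 17.2 ± 1.35% in HFpEF+TYA-018. These shares are a description with no test, since a share also moves with the other members.

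**Figure D2:**
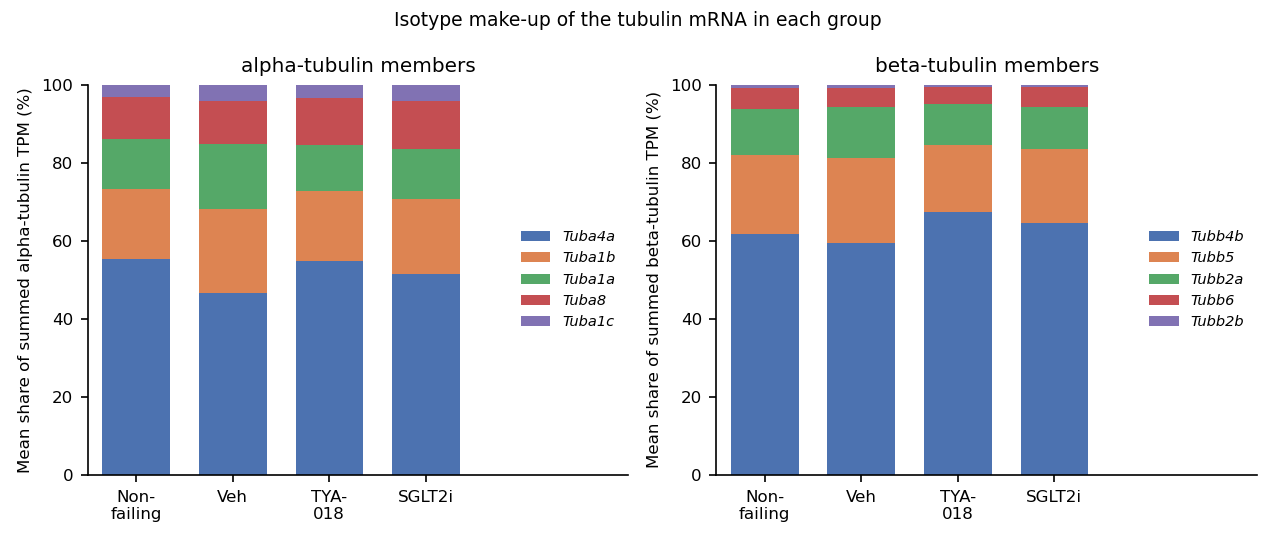
Mean share of each gene in the summed TPM of the 5 alpha-tubulin genes (left) and of the 5 beta-tubulin genes (right), in percent, for the 4 groups. Tuba4a and Tubb4b are the largest blocks in every group, and Tubb4b goes from 59.3% in HFpEF+Veh to 67.2% in HFpEF+TYA-018.

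Comparisons between groups used counts-per-million values (CPM) scaled with TMM factors, with edgeR's quasi-likelihood test and Benjamini-Hochberg adjustment over all 13765 genes. Adjusted p values under 0.05 count as calls, and fold changes are log2 with their standard error. These are bulk samples, in which fewer cells of a type and less RNA per cell cannot be told apart.

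Disease was read from HFpEF+Veh against non-failing hearts. None of the 10 tubulin genes was called, where 3.15% of all genes tested were, and 3 members had an unadjusted p under 0.05, where 15.9% of all genes did, all lower in HFpEF+Veh. DESeq2 called 1 of the 10, where it called 4.35% of all genes. Those 3 were Tuba4a, Tuba8 and Tubb6, and the other 7 had fold changes between -0.18 and 0.06.

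Tuba4a had 312, 405 and 508 CPM (lowest, median, highest) in non-failing hearts and 180.4, 274 and 354 in HFpEF+Veh. In 7 of the 8 HFpEF+Veh libraries the CPM of Tuba4a was below that of every non-failing library. In TPM it ran from 108.6 to 225.8 in HFpEF+Veh and from 174.5 to 286.3 in non-failing hearts. Its fold change was -0.57 (SE 0.17, adjusted p = 0.066), and -0.59 (adjusted p = 0.060) without V2523, where 4.49% of genes were called. DESeq2 called it at an adjusted p of 0.033. An edgeR fit of the 2 groups alone called it at 0.022, where 2.58% of genes were called. These were 2 of 8 other settings. With 1 library left out, edgeR called it in 4 of 38 fits, without V2510, V2521, V2555 or V2571. The adjusted p rose to 0.146 without V2530.

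Tuba8 stood at 90.5, 124 and 154 CPM in non-failing hearts and 88.4, 102 and 118 in HFpEF+Veh, with a fold change of -0.31 (SE 0.12, adjusted p = 0.172). All 8 vehicle libraries were below the non-failing median of Tuba8, but the ranges overlapped. Tubb6, a broadly expressed beta-tubulin, went from 16.6, 19.9 and 30.7 CPM to 14.2, 17.0 and 20.5, with a fold change of -0.27 (SE 0.11, adjusted p = 0.217) and overlapping ranges. Tubb4b had a fold change of -0.16 (SE 0.09, adjusted p = 0.408).

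Cell type markers differed in the same comparison. Of 6 cardiomyocyte markers the troponin genes Tnnt2 (-0.43, adjusted p = 0.0046) and Tnni3 (-0.34, adjusted p = 0.013) fell, and the summed level was 9963 to 14940 TPM in non-failing and 9930 to 13060 TPM in HFpEF+Veh. Of 6 fibroblast markers Pdgfra and Lum rose, and the sum was 166 to 275 TPM against 245 to 582.1. The pericyte marker Rgs5 (-0.36, adjusted p = 0.031) and the dividing-cell marker Cenpf (-1.52, adjusted p = 0.00050) fell, each below the non-failing average in 8 of 8 libraries. All 5 erythroid markers had an unadjusted p under 0.05 and fold changes above 0, with none called by edgeR. An unadjusted p under 0.05 with no call was also found for the fibroblast markers Dcn (0.35) and Col1a2 (0.28), the smooth muscle marker Acta2 (0.71), the macrophage markers Adgre1 (0.51) and Mrc1 (0.46) and the Schwann cell markers Sox10 (-0.57) and Prx (0.40). No hepatocyte marker was called, and each of the 6 was below the non-failing average in 7 of 8 HFpEF+Veh libraries. The part of these in the Tuba4a values was not tested.

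The effect of HDAC6 inhibition was read from HFpEF+TYA-018 against HFpEF+Veh. Of the 10 tubulin genes 3 were called, where 1.93% of all genes tested were, and all 3 were higher with TYA-018, where 0.835% of all genes were called higher. They were Tubb4b, Tuba8 and Tuba4a. The median fold change was 0.01 over the members and -0.01 over all genes tested, and 5 members had fold changes above 0 and 5 below.

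Tubb4b had 147, 173 and 209.7 CPM (lowest, median, highest) in HFpEF+Veh and 215, 232 and 320.1 in HFpEF+TYA-018. On this scale all 11 HFpEF+TYA-018 libraries were above the highest vehicle library, so the groups did not overlap. How many of all genes tested separated in this way was not counted. In TPM they did overlap, with 86.1 to 126.5 in HFpEF+Veh and 111.5 to 172.8 in HFpEF+TYA-018. The fold change was 0.46 (SE 0.08, adjusted p = 0.0012), which held as a call without V2523 (0.45, adjusted p = 0.022, where 1.42% of genes were called) and without each of the 38 libraries in turn.

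Tuba8, which lacks the lysine codon at position 40, went from 88.4, 102 and 118 CPM to 112, 132 and 178. In 9 of 11 HFpEF+TYA-018 libraries its CPM was above every vehicle library, and in all 11 above the vehicle median. In TPM it had 34.6, 39.9 and 47.7 in HFpEF+Veh and 37.7, 48.3 and 65.0 in HFpEF+TYA-018, so the overlap was wider. The fold change was 0.47 (SE 0.11, adjusted p = 0.021). It was 0.44 without V2523 (adjusted p = 0.0498), and of 38 fits leaving out a library, 1 lost the call, that without V2530 (adjusted p = 0.053). The call was also lost with library size alone (adjusted p = 0.057).

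Tuba4a went from 180.4, 274 and 354 CPM to 208.9, 448 and 559.5, with a fold change of 0.59 (SE 0.16, adjusted p = 0.046). It was above every vehicle library in 7 of 11 HFpEF+TYA-018 libraries and below the vehicle median in 1, V2555, the lowest of its group. The call was narrow: it held in 14 of the 38 fits without 1 library, with an adjusted p of up to 0.113 without V2530, and was lost without V2523 (0.62, adjusted p = 0.057). It was also lost with library size alone (adjusted p = 0.070), with an offset for gene length (0.094) and in a fit of the 2 groups alone (0.081). V2530 was the vehicle library with the lowest Tuba4a and Tubb4b and also had the highest summed fibroblast markers, 582.1 TPM against a group median of 306. The part of that in the result was not tested.

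Leaving V2523 out moved the vehicle average little: from 179.7 ± 22.8 to 181.6 ± 23.9 CPM for Tubb4b, from 102 ± 11.2 to 104 ± 10.4 for Tuba8 and from 270.0 ± 51.0 to 266 ± 53.8 for Tuba4a (SD, n = 8 and 7).

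The size of these 3 differences depended on the scale. The ratio of mean TPM between HFpEF+TYA-018 and HFpEF+Veh was 1.24 for Tubb4b, against 1.37 in TMM-scaled CPM. Erythroid markers summed to 5780 to 41870 TPM in HFpEF+Veh and 4811 to 22930 TPM in HFpEF+TYA-018, and their part in the difference between scales was not tested. On log2(TPM + 1), the scale used in the study's methods, limma gave fold changes of 0.32 for Tubb4b, 0.31 for Tuba8 and 0.40 for Tuba4a, with adjusted p values of 0.061, 0.110 and 0.184, and called none of the 10, where it called 0.273% of all genes. The directions of these 3 were the same on both scales.

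The other 7 members were not called with TYA-018. Tubb2b, a beta-tubulin best known from developing neurons, had 2.72, 3.24 and 4.59 CPM in HFpEF+Veh and 1.94, 2.29 and 3.601 in HFpEF+TYA-018, a fold change of -0.40 (SE 0.15, adjusted p = 0.155). With library size alone as the scale it was called lower (-0.53, adjusted p = 0.042). In 6 of 11 HFpEF+TYA-018 libraries Tubb2b was below every vehicle library. Tuba1a had a fold change of -0.24 (SE 0.12, adjusted p = 0.295). Tubb6 stood at 0.20 (SE 0.11, adjusted p = 0.327), and Tuba1b, Tuba1c, Tubb2a and Tubb5 lay between -0.08 and 0.03. Summing Tuba1a, Tuba1b and Tuba1c gave -0.08 (SE 0.08, adjusted p = 0.640), and summing Tubb2a and Tubb2b gave -0.08 (SE 0.11, adjusted p = 0.763).

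**Figure D3:**
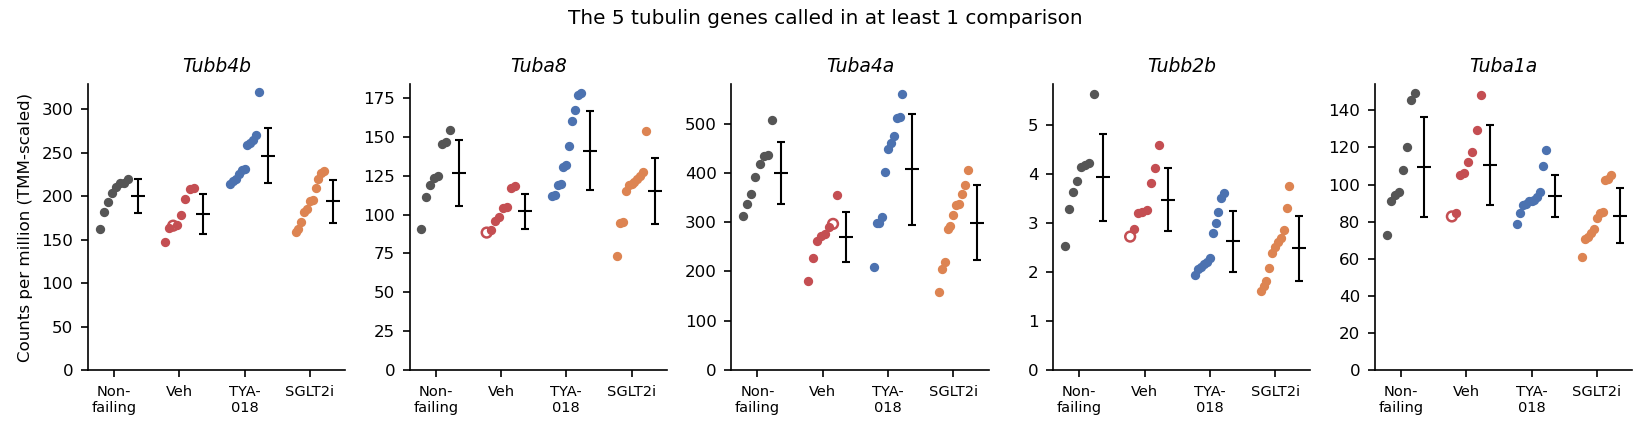
TMM-scaled CPM of the 5 tubulin genes called in at least 1 comparison, one point per library sorted within each group, with mean and SD, and V2523 as an open circle. For Tubb4b all 11 HFpEF+TYA-018 points (215 to 320.1 CPM) lie above the 8 HFpEF+Veh points (147 to 209.7 CPM).

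Markers of other cell types were read in the same comparison. None of the 6 cardiomyocyte, 6 fibroblast, 6 endothelial, 6 pericyte and smooth muscle, 6 macrophage, 6 dividing cell, 5 Schwann cell and neuron and 5 erythroid markers was called, and the 6 cardiomyocyte markers summed to 9930 to 13060 TPM in HFpEF+Veh and 9991 to 15390 TPM in HFpEF+TYA-018. The median fold change was 0.11 for cardiomyocyte markers and -0.23 for fibroblast markers, with all 6 of the latter below 0. At an unadjusted p under 0.05, as 17.5% of all genes had, stood the cardiomyocyte markers Tnni3 (0.22), Tnnt2 (0.20) and Actc1 (0.38), the pericyte marker Kcnj8 (0.26) and, below 0, 2 fibroblast, 2 endothelial, 1 macrophage and 2 dividing-cell markers. The 6 adipocyte markers were too low to test, at no more than 0.79 TPM in sum in any group. All 6 hepatocyte markers were called lower. Their summed level was 1.31 to 960.4 TPM in HFpEF+Veh and 1.22 to 2.67 TPM in HFpEF+TYA-018, and it was 1.31 to 25.9 TPM without V2523. The part of cell make-up in the tubulin differences was not tested.

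SGLT2 inhibition was read from HFpEF+SGLT2i against HFpEF+Veh, which share the vehicle libraries with the comparison above. None of the 10 tubulin genes was called, where 0.850% of all genes tested were, while 4 had an unadjusted p under 0.05, where 10% of all genes did, all lower with the drug. DESeq2 called none of them, where it called 0.835% of all genes. These were Tuba1a, Tubb2a, Tubb2b and Tubb5.

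Tuba1a, an alpha-tubulin best known from neurons, had 82.8, 109 and 148 CPM in HFpEF+Veh and 61.0, 82.2 and 105 in HFpEF+SGLT2i. In 6 of 11 HFpEF+SGLT2i libraries it was below every vehicle library, and all 11 were below the vehicle median. The fold change was -0.41 (SE 0.12, adjusted p = 0.102), and -0.46 (adjusted p = 0.141) without V2523. Summing Tuba1a, Tuba1b and Tuba1c gave -0.22 (SE 0.08, adjusted p = 0.240). Tuba1a was called with library size alone as the scale (adjusted p = 0.033) and without V2532 (adjusted p = 0.046). All 6 hepatocyte markers were called lower in this comparison as well, and without V2523 only 2 genes in all, or 0.0145%, were called. All 5 erythroid markers had fold changes below 0, from -0.93 to -0.80, and an unadjusted p under 0.05, as did the fibroblast markers Dcn, Lum and Tcf21 and the dividing-cell marker Birc5 (-0.63), with none called by edgeR. The erythroid sum was 5780 to 41870 TPM in HFpEF+Veh and 4720 to 16040 TPM in HFpEF+SGLT2i, and the part of these markers in the Tuba1a values was not tested.

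Tubb2b went to 1.61, 2.50 and 3.74 CPM from 2.72, 3.24 and 4.59, a fold change of -0.48 (SE 0.15, adjusted p = 0.164), with 8 of 11 HFpEF+SGLT2i libraries below every vehicle library. Tubb2a went from 31.3, 40.4 and 45.7 to 24.2, 30.5 and 49.4 CPM, a fold change of -0.29 (SE 0.11, adjusted p = 0.332). The Tubb2a and Tubb2b sum stood at -0.30 (SE 0.11, adjusted p = 0.274). The highest Tubb2a value of all groups was in the SGLT2i library V2571. Tubb5 had a fold change of -0.21 (SE 0.08, adjusted p = 0.314).

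The 3 genes that were called with TYA-018 had smaller values here, given side by side because the vehicle libraries are shared. With the SGLT2 inhibitor Tubb4b stood at 0.11 (SE 0.08, 95% interval -0.05 to 0.28), Tuba8 at 0.17 (SE 0.11, interval -0.05 to 0.39) and Tuba4a at 0.15 (SE 0.16, interval -0.17 to 0.46). None of the 3 was called.

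The drugs were then compared directly, HFpEF+TYA-018 against HFpEF+SGLT2i. No gene was called at all, so the background was 0%, although 1821 of the 13765 genes, or 13.2%, had an unadjusted p under 0.05, and 5 of the 10 tubulin genes did. DESeq2 called 185 genes, or 1.75% of the 10562 to which it gave an adjusted p, of which 1 was a tubulin gene. Fold changes were above 0 for 9 of the 10 members, with a median of 0.17 against -0.01 over all genes. No marker was called, but the 5 erythroid markers had fold changes of 0.66 to 0.82, and the unadjusted p was under 0.05 for 3 of them and for Tnni3 (0.19), Tcf21 (0.26), Kcnj8 (0.26), Pdgfra (-0.19), Kdr (-0.27), Tie1 (-0.24) and Cd163 (-0.52). The part of these in the tubulin values was not tested.

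Tubb4b had 159, 195 and 229.6 CPM in HFpEF+SGLT2i against 215, 232 and 320.1 in HFpEF+TYA-018, with 7 of 11 HFpEF+TYA-018 libraries above every HFpEF+SGLT2i library. Its fold change of 0.35 (SE 0.08) had an adjusted p of 0.083, which DESeq2 gave as 0.0087, and it was called without V2570 (adjusted p = 0.044). The same difference was 0.45 for Tuba4a (SE 0.15, adjusted p = 0.168) and 0.29 for Tuba8 (SE 0.10, adjusted p = 0.198). Tubb2a stood at 0.24 (SE 0.11, adjusted p = 0.328) and Tuba1b at 0.17 (SE 0.07, adjusted p = 0.320). The Tuba1a, Tuba1b and Tuba1c sum was 0.14 (SE 0.07, adjusted p = 0.40) and the Tubb2a and Tubb2b sum 0.22 (SE 0.10, adjusted p = 0.346). The 95% interval for Tubb4b ran from 0.20 to 0.50.

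**Figure D4:**
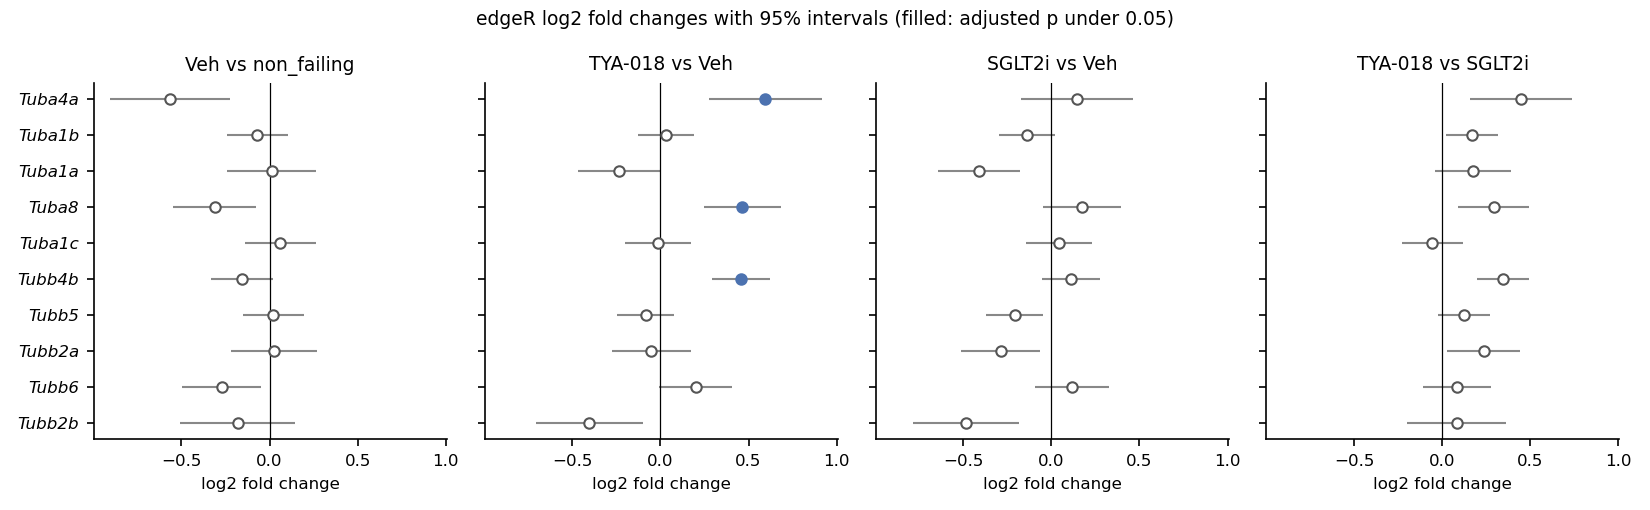
Log2 fold change of each tubulin gene from edgeR in 4 comparisons, with 95% intervals, where filled points have an adjusted p under 0.05. Only Tubb4b (0.46), Tuba8 (0.47) and Tuba4a (0.59) are filled, all in TYA-018 against vehicle.

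Treated HFpEF hearts were also set against non-failing hearts. Since edgeR called none of the 10 members for HFpEF+Veh against non-failing, a return to the non-failing level cannot be read from this. In HFpEF+TYA-018, 2 of 10 members were called, where 7.39% of all genes were. Tubb4b was above the non-failing level (162, 207 and 219.5 CPM), with a fold change of 0.30 (SE 0.08, adjusted p = 0.020). Tubb2b was below it (2.53, 3.99 and 5.62 CPM), with a fold change of -0.58 (SE 0.15, adjusted p = 0.014). Tuba4a had a fold change of 0.03 with a 95% interval of -0.29 to 0.34, and its direction turned with the scale (-0.03 with library size alone). The Tubb2b call was lost without V2509 (adjusted p = 0.053) and the Tubb4b call without V2510 (adjusted p = 0.056) or with library size alone (0.25, adjusted p = 0.078). Tuba8 had a fold change of 0.15 (interval -0.06 to 0.37). Among the markers, all 6 of hepatocytes were called lower, with sums of 16.4 to 258 TPM in non-failing and 1.22 to 2.67 TPM in HFpEF+TYA-018. Lum (0.54), Acta2 (0.67) and Hbb-bs (1.15) were called higher and Rgs5 (-0.33), Cenpf (-1.08) and Sox10 (-0.62) lower. An unadjusted p under 0.05 with no call was found for Hba-a1 (1.015), Hba-a2 (0.93), Hbb-bt (1.07), Alas2 (1.19) and Pdgfra (0.16). The same held for Tnnt2 (-0.23), Mki67 (-0.67), Top2a (-0.83) and Ccnb1 (-0.92). The part of these markers in the Tubb4b and Tubb2b values was not tested.

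In HFpEF+SGLT2i against non-failing hearts, 2 of 10 members were called, where 6.45% of all genes were, and both were lower, where 2.99% of all genes were. Tubb2b had a fold change of -0.66 (SE 0.15, adjusted p = 0.0055), and all 11 HFpEF+SGLT2i libraries were below the non-failing average. Tuba1a had a fold change of -0.40 (SE 0.12, adjusted p = 0.035) from 72.8, 102 and 149.5 CPM in non-failing hearts, and was called in 30 of the 38 fits without 1 library. That call was lost in a fit of the 2 groups alone (adjusted p = 0.076) and with limma on log2(TPM + 1) or log2(TPM + 0.1) (adjusted p = 0.170 and 0.179). Tuba4a stood at -0.42 (SE 0.16, adjusted p = 0.118). With neighbours summed, the Tuba1a, Tuba1b and Tuba1c sum was -0.24 (SE 0.08, adjusted p = 0.056) and the Tubb2a and Tubb2b sum -0.29 (SE 0.11, adjusted p = 0.119), so neither sum was called. For TYA-018 against non-failing the Tubb2a and Tubb2b sum was -0.07 (SE 0.11, adjusted p = 0.773) and the Tuba1a, Tuba1b and Tuba1c sum -0.10 (SE 0.08, adjusted p = 0.49). Of the markers for HFpEF+SGLT2i against non-failing, Tnnt2 (-0.37), Tnni3 (-0.32), Tcf21 (-0.43), Cenpf (-1.09) and all 6 of hepatocytes were called lower and Pdgfra (0.35) higher. An unadjusted p under 0.05 with no call was found for Lum (0.47), Acta2 (0.45), Adgre1 (0.43), Rgs5 (-0.26) and Top2a (-0.68). The cardiomyocyte sum was 9963 to 14940 TPM in non-failing and 7901 to 12800 TPM in HFpEF+SGLT2i, and the part of these markers in the Tubb2b and Tuba1a values was not tested.

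The members did not move as 1 block across the 38 libraries. For 45 pairs, Pearson's r and Spearman's rho of log2 CPM (prior count 2) were computed, with 100000 permutations and Benjamini-Hochberg adjustment over the pairs; 1e-05 is the smallest p these can give. The values of a library share its depth and scaling factor. The permutations ignored group, so their p values also reflect differences between group means.

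Tuba8 and Tubb4b were the closest pair by r, with r = 0.87 and rho = 0.83 (permutation p = 1e-05 for both, adjusted p = 9e-05 for r). Their r was 0.85 without the 2 libraries farthest from the median of Tuba8. With group means removed r was 0.83, and within groups it was 0.90 in non-failing, 0.87 in HFpEF+Veh, 0.80 in HFpEF+TYA-018 and 0.87 in HFpEF+SGLT2i. Tuba4a and Tuba8, the closest pair by rho, had r = 0.85 and rho = 0.85 (permutation p = 1e-05 for both). For this pair r was 0.81 without the 2 farthest libraries, and within groups from 0.57 in HFpEF+Veh to 0.96 in HFpEF+SGLT2i. Tuba4a and Tubb4b had r = 0.72 and rho = 0.66 (permutation p = 1e-05 for both), r = 0.65 without the 2 farthest, and within groups from 0.42 to 0.82.

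Over all libraries a separate set varied together around Tuba1a. Tuba1a and Tubb5 had r = 0.85 and rho = 0.80 (permutation p = 1e-05 for both), r = 0.82 without the 2 farthest libraries, and within groups from 0.51 in HFpEF+TYA-018 to 0.88 in HFpEF+Veh. Tuba1a and Tubb2a had r = 0.79 and rho = 0.80 (permutation p = 1e-05 for both), r = 0.79 without the 2 farthest, and within groups from 0.49 in HFpEF+TYA-018 to 0.88 in non-failing. Tuba1a and Tubb2b had r = 0.63 and rho = 0.64 (permutation p = 2e-05 and 1e-05), r = 0.63 without the 2 farthest, but only 0.10 within HFpEF+TYA-018. With group means removed Tuba1a had r = 0.81 with Tubb5, 0.75 with Tubb2a and 0.47 with Tubb2b. The other pairs of this set were lowest within HFpEF+TYA-018. Within groups r ran from 0.11 to 0.80 for Tubb2a with Tubb5 and from 0.38 to 0.74 for Tubb2a with Tubb2b. For Tubb2b with Tubb5 it ran from -0.35 to 0.87. Over all libraries Tuba1b went with members of both sets. Its r was 0.49 with Tuba1a, 0.59 with Tubb5, 0.46 with Tuba4a and 0.48 with Tubb4b (permutation test, adjusted p of at most 0.0101). With group means removed these were 0.38, 0.52, 0.39 and 0.60. Within groups r ran from 0.18 to 0.65 with Tuba1a and from 0.46 to 0.66 with Tubb5. With Tuba4a it was -0.39 in non-failing and 0.38 to 0.52 in the HFpEF groups. With Tubb4b it was 0.07 in non-failing and 0.45 to 0.87 in the HFpEF groups. Tubb6 had r = 0.60 with Tuba1b, 0.52 with Tubb4b, 0.47 with Tuba8 and 0.14 with Tuba1a over all libraries. Within groups these ran from 0.31 to 0.74, 0.28 to 0.65, -0.02 to 0.61 and -0.31 to 0.52.

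Across the sets the 12 pairs had r between -0.27 and 0.09 over all libraries, and Tuba1a and Tuba4a had r = -0.27 and rho = -0.27 (permutation p = 0.102 and 0.103, adjusted p = 0.208 for r), and r = -0.20 without the 2 farthest libraries. Within each group their r was below 0, from -0.785 in non-failing to -0.37 in HFpEF+TYA-018, and -0.47 with group means removed. Within the 8 non-failing libraries Tuba4a also had r = -0.87 with Tubb5, -0.825 with Tubb2b and -0.69 with Tubb2a, against -0.28, -0.11 and -0.46 within HFpEF+Veh, -0.32, -0.45 and -0.63 within HFpEF+SGLT2i, and 0.0041, 0.32 and 0.03 within HFpEF+TYA-018. These values within groups are a description with no test.

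**Figure D5:**
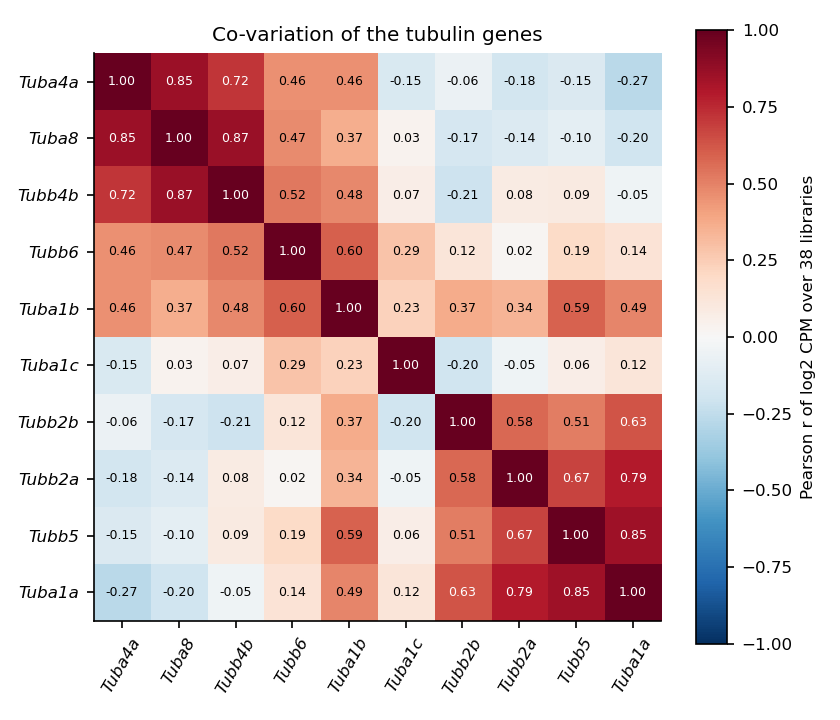
Pearson's r of log2 CPM over 38 libraries for each pair of tubulin genes. Tuba4a, Tuba8 and Tubb4b form a block at the top left (r = 0.72 to 0.87) and Tuba1a, Tubb5, Tubb2a and Tubb2b a block at the bottom right (r = 0.51 to 0.85). Not every pair of the latter block went together within each group, with r = -0.35 for Tubb2b and Tubb5 within HFpEF+TYA-018.

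The genes whose pattern over the 38 libraries was most like that of each called member were read from 13764 other genes, as a description with no test. For Tuba4a these were Mrpl19 (r = 0.88), which encodes a mitochondrial ribosomal protein, Tuba8 (0.85) and Spag7 (0.85). For Tuba8 they were Tubb4b (0.87), Tuba4a (0.85) and Mrpl19 (0.83). For Tubb4b they were Tuba8 (0.87), Mrpl34 (0.79), another mitochondrial ribosomal protein gene, and Ube2m (0.76), an E2 enzyme for NEDD8. With group means removed r was 0.63 for Tubb4b with Mrpl34 and 0.54 with Ube2m, and from 0.755 to 0.86 for the other pairs named here.

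For Tuba1a the most alike genes were Ywhaq (r = 0.86), a 14-3-3 protein gene, Ptma (0.85), which encodes prothymosin alpha, and Tubb5 (0.85). For Tubb2b they were Sfpq (0.81), an RNA-binding splicing factor, Zfp644 (0.70) and Dnaja1 (0.70), a co-chaperone of HSP70. With group means removed r was 0.68, 0.61 and 0.54 for these, and from 0.78 to 0.83 for the genes named for Tuba1a. No gene was shared between the list of Tuba1a and those of Tuba4a, Tuba8 and Tubb4b.

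The promoters of the 3 genes called with TYA-018 are shown because these genes moved together. The sequences are RefSeq's on GRCm38.p6, from 250 bases before to 50 after RefSeq's gene start, 5′ to 3′ on the gene's strand, and 8 of the 10 members had an entry. RefSeq's start of Tuba4a lies inside the GENCODE span given above, so its stretch lies within that span. Capitals mark matches on either strand to 4 motifs, none of which contains another: the CCAAT box (letters CCAAT), the GC box (letters GGGCGG), the TATA box (letters TATAAA) and the E-box (letters CACGTG, which read the same on both strands). The first lies at chr2:25224653-25224952 on the minus strand, the second at chr6:121210484-121210783 on the plus strand and the third at chr1:75219245-75219544 on the minus strand.
Tubb4b: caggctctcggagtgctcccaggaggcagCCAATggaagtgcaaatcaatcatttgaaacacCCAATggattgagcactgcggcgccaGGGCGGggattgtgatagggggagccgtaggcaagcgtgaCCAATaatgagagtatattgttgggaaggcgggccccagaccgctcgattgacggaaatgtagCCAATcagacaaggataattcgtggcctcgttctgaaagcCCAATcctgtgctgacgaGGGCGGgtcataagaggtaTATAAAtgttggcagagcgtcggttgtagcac
Tuba8: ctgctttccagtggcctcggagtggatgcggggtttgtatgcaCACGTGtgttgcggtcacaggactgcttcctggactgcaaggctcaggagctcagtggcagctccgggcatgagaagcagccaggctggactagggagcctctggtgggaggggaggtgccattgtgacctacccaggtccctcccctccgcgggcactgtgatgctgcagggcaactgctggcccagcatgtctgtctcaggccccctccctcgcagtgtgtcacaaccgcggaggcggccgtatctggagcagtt
Tuba4a: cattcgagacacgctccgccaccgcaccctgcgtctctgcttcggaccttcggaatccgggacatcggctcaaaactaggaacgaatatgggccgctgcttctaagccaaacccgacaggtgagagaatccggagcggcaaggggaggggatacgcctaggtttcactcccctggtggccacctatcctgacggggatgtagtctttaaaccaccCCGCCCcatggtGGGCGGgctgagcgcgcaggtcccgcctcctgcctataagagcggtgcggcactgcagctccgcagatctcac
The Tubb4b promoter held 5 CCAAT matches, 2 GC boxes and 1 TATA box, the Tuba8 promoter 1 E-box and the Tuba4a promoter 2 GC boxes. Of 32851 promoters of this length, 37.4% held a CCAAT match, 35.7% a GC box, 13.6% a TATA box and 7.15% an E-box. The 3 promoters thus shared none of the 4 motifs between all of them. A match is a description of letters and not of a bound factor.

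Of 10 further tubulin genes, 7 passed the filter. Tubb1, the beta-tubulin of platelets, ranged from 0.07 to 12.3 TPM, a coefficient of variation of 95.9%, with a fold change of 0.78 (SE 0.66, adjusted p = 0.567) for TYA-018 against vehicle. Tubb3, the neuronal beta-tubulin, stood at 0.66 ± 0.14 TPM in non-failing hearts, 0.93 ± 0.28 in HFpEF+Veh, 1.02 ± 0.29 in HFpEF+TYA-018 and 0.63 ± 0.17 in HFpEF+SGLT2i (SD, n = 8, 8, 11 and 11). It was called higher in HFpEF+TYA-018 than in non-failing hearts, by 0.63 on the log2 CPM scale (SE 0.19, adjusted p = 0.034), and not called against vehicle (0.31, adjusted p = 0.398). The call held in 27 of the 38 fits without 1 library and in 5 of 8 other settings, and was lost with library size alone (adjusted p = 0.057). Tubb4a, the brain counterpart of Tubb4b, was lower in HFpEF+SGLT2i than in non-failing hearts, by -0.46 (SE 0.14, adjusted p = 0.045), called in 27 of the 38 fits without 1 library and in 2 of 8 other settings. Tuba3a had no count in the libraries of either drug, and Tubal3 had none in any library.

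Gamma-tubulin 1 (Tubg1), which nucleates microtubules, was 1 of these 7 and the one called for TYA-018 against vehicle. It rose by 0.23 (SE 0.06, adjusted p = 0.049), from 8.02 ± 0.84 to 8.38 ± 0.59 TPM (SD, n = 8 and 11), where the ranges overlapped (6.78 to 9.25 and 7.26 to 9.16 TPM). On the TMM-scaled CPM of the test it was above the vehicle average in 11 of 11 libraries. The call held in 13 of the 38 fits without 1 library and in 2 of 8 other settings, and the fold change was 0.10 (adjusted p = 0.375) with library size alone. Tubg2, Tubd1 and Tube1 were not called in any comparison.

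The enzymes that modify tubulin were mostly not called. Hdac6, the target of TYA-018, had fold changes of 0.22 (SE 0.11, adjusted p = 0.339) for HFpEF+Veh against non-failing and -0.01 (SE 0.11, adjusted p = 0.974) for TYA-018 against vehicle. The acetyltransferase gene Atat1 stood at -0.04 (SE 0.11, adjusted p = 0.882) and Sirt2, the other tubulin deacetylase gene, at 0.12 (SE 0.06, adjusted p = 0.322) for TYA-018 against vehicle. Ttl, which restores the terminal tyrosine, stood at 0.03 (SE 0.07, adjusted p = 0.824).

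Vash1, the enzyme that removes that tyrosine, was lower with TYA-018. It fell by 0.81 against vehicle (SE 0.20, adjusted p = 0.021) and by 0.95 against non-failing hearts (SE 0.19, adjusted p = 0.0016), from 1.499 TPM on average in HFpEF+Veh to 0.758 in HFpEF+TYA-018, and was below the vehicle average in 11 of 11 libraries. The call against vehicle was lost without V2529 (adjusted p = 0.062) and in a fit of the 2 groups alone (adjusted p = 0.056). Its partner gene Svbp, listed under an older symbol, stood at 0.17 (SE 0.08, adjusted p = 0.252) against vehicle. With the SGLT2 inhibitor Vash1 had a fold change of -0.30 (SE 0.19, adjusted p = 0.643) against vehicle. Vash1 is also well known as an endothelial gene, and all 6 endothelial markers had fold changes below 0 for TYA-018 against vehicle, with a median of -0.13 and none called. The part of endothelial cells in the Vash1 difference was not tested.

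Ttll1, a glutamylase of tubulin tails, was lower in HFpEF+Veh than in non-failing hearts, by -0.59 (SE 0.11, adjusted p = 0.0016), in 8 of 8 libraries. It was also lower in HFpEF+SGLT2i, by -0.54 (SE 0.10, adjusted p = 0.00073), and in HFpEF+TYA-018, by -0.38 (SE 0.10, adjusted p = 0.020). These comparisons share the non-failing libraries. Fign, a microtubule-severing enzyme, was lower in HFpEF+Veh than in non-failing hearts by -0.57 (SE 0.16, adjusted p = 0.037) and higher with TYA-018 than with vehicle by 0.60 (SE 0.15, adjusted p = 0.027). Both comparisons use the same vehicle libraries. The Fign calls held in 28 and 34 of the 38 fits without 1 library, with an adjusted p of up to 0.092 and 0.068 (both without V2530), and in 2 and 3 of 8 other settings. The Ttll1 call in HFpEF+TYA-018 was lost without V2502 (adjusted p = 0.053).

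Over 99 tested genes of microtubule biology outside the members, 2 were called for HFpEF+Veh against non-failing, 3 for TYA-018 against vehicle, 4 for TYA-018 against non-failing and 5 for SGLT2i against non-failing. Read against the backgrounds of 3.15%, 1.93%, 7.39% and 6.45%, these counts do not set the list apart. The 3 genes for TYA-018 against vehicle were Vash1, Fign and Tubg1; leaving out V2529 gave 0 and leaving out V2523 gave 5. For the 2 comparisons of SGLT2i against vehicle and of the drugs, none was called by edgeR, with 9 and 19 genes at an unadjusted p under 0.05 (10% and 13.2% over all genes). The list of tubulin folding and autoregulation, with prefoldin, chaperonin and cofactor genes and with Ttc5 and Scaper, which act in the decay of tubulin mRNA, held 24 tested genes. For TYA-018 against vehicle none of the 24 was called by edgeR, and 2 had an unadjusted p under 0.05, where 17.5% of all genes did. Fold changes were above 0 for 22 of the 24 and for 6632 of the 13765 genes tested. The medians were 0.07 and -0.01, as a description with no test. Dctn2, a subunit of the motor adaptor dynactin, was higher in HFpEF+TYA-018 than in non-failing hearts, by 0.22 (SE 0.05, adjusted p = 0.0031). Pfdn6, a prefoldin subunit gene, was lower in HFpEF+SGLT2i than in non-failing hearts, by -0.29 (SE 0.09), and Dync1i2, a dynein chain gene, by -0.19 (SE 0.05). The Pfdn6 call held in 32 and the Dync1i2 call in 36 of the 38 fits without 1 library, and these 2 calls and that of Dctn2 were lost with both limma fits. With library size alone the Dctn2 and Dync1i2 calls were lost as well (adjusted p = 0.060 and 0.071). Camsap3, which caps microtubule minus ends, was called higher there as well but had no count in any of the 8 non-failing libraries and counts in 5 of the 11 HFpEF+SGLT2i libraries, so no fold is given.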

How the data were processed

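RNA from the left ventricle of 38 mice was sequenced, 1 library per mouse. Per the methods of the study, the authors trimmed reads with fastp, quantified GENCODE mouse transcripts of GRCm38 with Salmon 1.6.0 (version also in the submitters' processing notes) and collapsed transcripts to genes using tximport. The authors deposited estimated counts, TPM and effective transcript lengths per gene. The labels' processing notes list a human build, although the symbols are of mouse, and labels and methods differ on read layout.

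Here the deposited estimated counts were rounded, genes were kept with filterByExpr, and 1 model of the 4 groups without covariates was fitted in edgeR 4.0.16 (R 4.3.3) with TMM factors. Quasi-likelihood F tests were adjusted with Benjamini-Hochberg over 13765 genes, called under 0.05, with 95% intervals of 1.96 standard errors. The fit was tested on simulated counts first. Alternatives were DESeq2 1.42.0, limma 3.58.1 on log2(TPM + 1) or log2(TPM + 0.1), other scaling, filters and offsets, 2 groups alone, summed neighbours and each library left out. No 2 of the 38 libraries held identical counts (0 of 703 pairs).

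The 10 members, the marker lists and the list of 110 other microtubule genes were chosen with earlier results of these data known. Named are all members, the genes of tubulin acetylation and tyrosination, other tubulins that passed the filter, list genes called in a comparison, and the 3 genes most correlated with each called member. Svbp was matched under its older symbol through RefSeq.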

Additional observations from a re-analysis of the deposited data

How the results depend on the processing

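No paired analysis was possible because the groups share no mouse numbers. The number of the 10 tubulin genes called moved as follows, with the share of all genes called in brackets; where no cause is given, the cause was not tested. For HFpEF+Veh against non-failing (0), DESeq2 (4.35% of all genes called) and a fit of the 2 groups alone (2.58%) each gave 1 (Tuba4a), and leaving out 1 library gave 0 to 1. For TYA-018 against vehicle (3), limma on log2(TPM + 1) (0.273%) or log2(TPM + 0.1) (0.295%) gave 0, library size alone (7.96%) gave 2 (Tubb4b and, lower, Tubb2b), the length offset (1.39%) and the 2 groups alone (1.22%) each gave 2 (without Tuba4a), and leaving out 1 library gave 1 to 3, with 1 without V2530. For SGLT2i against vehicle (0), library size alone (1.08%) gave 1 and leaving out 1 library 0 to 1. For TYA-018 against SGLT2i (0), DESeq2 (1.75%) gave 1 and leaving out 1 library 0 to 1. For TYA-018 against non-failing (2), library size alone (6.57%) gave 1 (without Tubb4b) and leaving out 1 library 1 to 2. For SGLT2i against non-failing (2), both limma fits (3.75% and 3.81%) and the 2 groups alone (6.20%) gave 1 (without Tuba1a), and leaving out 1 library 1 to 3, with 3 without V2562 or V2571 and 1 without V2502, V2507, V2509, V2563, V2564, V2565, V2566 or V2574.

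Of the 99 other microtubule genes, HFpEF+Veh against non-failing (2) gave 1 without the filter (1.91% of all genes), with limma on log2(TPM + 1) (3.16%) and with the 2 groups alone (2.58%), and 1 to 3 with a library left out. TYA-018 against vehicle (3) gave 6 with library size alone (7.96%) and 1 with the length offset (1.39%) and both limma fits (0.273% and 0.295%). It gave 0 with the 2 groups alone (1.22%), and 0 to 5 with a library left out. For TYA-018 against SGLT2i (0) DESeq2 (1.75%) gave 3. With any library left out, edgeR stayed at 0 for TYA-018 against SGLT2i and for SGLT2i against vehicle. TYA-018 against non-failing (4) gave 7 with DESeq2 (9.24%) and 3 to 6 with a library left out. SGLT2i against non-failing (5) gave 3 with library size alone (4.77%), limma on log2(TPM + 0.1) (3.81%) and the 2 groups alone (6.20%). It gave 1 with limma on log2(TPM + 1) (3.75%), and 2 to 6 with a library left out.

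Some directions turned. For HFpEF+Veh against non-failing, the sum of Tuba1a, Tuba1b and Tuba1c was -0.022 and that of Tubb2a and Tubb2b 0.0074, opposite in sign to Tuba1a and Tubb2b alone. Tubb2b alone was below 0 in all 38 fits without a library, and Tuba1a ran from -0.059 to 0.081 with a library left out. For TYA-018 against non-failing, Tuba4a was -0.030 with library size alone, -0.0056 with the length offset, -0.088 with both limma fits, and -0.031 to 0.088 with a library left out. Library size alone moved the median of all genes for TYA-018 against vehicle to -0.14, and Tubb4b then stood at 0.33 (edgeR, adjusted p = 0.020), Tuba8 at 0.34 (0.057) and Tuba4a at 0.46 (0.070). At 38.8 to 177 counts per library, depth limits Tubb2b most among the members.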
